A study of Mus musculus with 12 samples.

Results

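The genes described here are the pigmentation and lineage genes of the melanocyte, the part of a B16-F10 tumor's RNA that comes mainly from the melanoma cells. They are Tyr, Tyrp1, Dct, Pmel, Mlana, Mitf, Slc45a2, Oca2, Gpnmb and Sox10, taken by symbol from the deposited table of raw counts, which holds these 10 among 23420 genes. All 10 passed the filter on low counts, which left 13095 genes to test. The study sequenced RNA of 12 subcutaneous tumors, 3 from each of 4 groups, to compare PD-1 blockade in nonobese and obese male mice. B16-F10 is a pigmented melanoma line of C57BL/6 origin, and all tumors were grown from this single line in the right flank of C57BL/6J males that were 4 to 5 weeks old when the diets began. Nonobese mice had a control diet and obese mice a Western diet with 0.2% added cholesterol, for 15 weeks. Once tumors were palpable, each diet group received 10 mg/kg of an antibody intraperitoneally, either anti–PD-1 (clone 29F.1A12) or its isotype control (clone 2A3).

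Melanin is made inside the melanosome, an organelle related to the lysosome. Tyr, Tyrp1 and Dct encode the enzymes of melanin synthesis. Pmel encodes the protein of the fibrils on which melanin is laid down, and Mlana a small melanosomal membrane protein. Slc45a2 and Oca2 encode transport proteins that keep the melanosome lumen fit for tyrosinase. Gpnmb is a melanosomal glycoprotein related to Pmel that activated macrophages also make. The transcription factor MITF acts at the promoters of many pigment genes, and SOX10, a factor of neural crest cells, acts at Mitf and at some pigment promoters. Peptides of several of these proteins are melanoma antigens for CD8+ T cells, among them gp100, the product of Pmel.

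The promoters of the 3 enzyme genes are shown because each carries the core of the M-box, TCATGTG, the element through which MITF is known to act. The sequences are from RefSeq on GRCm38.p6, give the 250 bases before the annotated start site 5′ to 3′ on the gene's strand, and have the core in capitals on either strand. They lie at chr7:87493513-87493762 (minus strand) for Tyr, chr4:80833963-80834212 (plus strand) for Tyrp1 and chr14:118052247-118052496 (minus strand) for Dct.
Tyr: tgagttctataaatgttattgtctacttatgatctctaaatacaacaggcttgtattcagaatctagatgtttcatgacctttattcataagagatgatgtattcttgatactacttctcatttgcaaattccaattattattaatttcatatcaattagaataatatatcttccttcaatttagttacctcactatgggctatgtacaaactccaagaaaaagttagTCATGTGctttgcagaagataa
Tyrp1: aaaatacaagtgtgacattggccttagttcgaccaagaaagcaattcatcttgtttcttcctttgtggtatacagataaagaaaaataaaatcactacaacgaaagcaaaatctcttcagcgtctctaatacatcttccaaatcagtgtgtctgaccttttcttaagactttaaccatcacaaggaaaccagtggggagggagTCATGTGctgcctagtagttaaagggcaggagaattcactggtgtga
Dct: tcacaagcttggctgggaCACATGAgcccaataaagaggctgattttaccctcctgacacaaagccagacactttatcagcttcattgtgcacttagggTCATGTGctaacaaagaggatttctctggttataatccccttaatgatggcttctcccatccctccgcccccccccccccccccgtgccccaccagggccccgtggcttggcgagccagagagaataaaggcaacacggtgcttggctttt

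The core began 22 bases before the start site in Tyr and 47 bases before it in Tyrp1. Dct held it 151 bases before the start site as spelled and 232 bases before it as the reverse complement, CACATGA. Windows that also took in 50 bases after the start were searched on both strands for 4 motifs. TCATGTG was in 3.77% of all 32851 such windows. The shorter CATGTG, which lies inside TCATGTG, was in 14.2% of windows and among the members also in Oca2, 186 bases before its start. CACGTG was in 7.15% of windows and in 0 of the 8 windows of members. ACAAAG, a form of the site bound by SOX proteins, was in 18.7% of windows and in those of Tyrp1, Dct, Oca2 and Gpnmb. Promoter entries were matched for 6 of the 10 members, Tyr, Tyrp1, Dct, Mitf, Oca2 and Gpnmb, and not for Pmel, Mlana, Slc45a2 and Sox10. These matches describe letters in a window and were not set against binding data.

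Counts on genes summed to between 14022929 and 33871843 per tumor. The member with the fewest counts was Oca2, with 1502 in its lowest tumor, so counting error was small beside the spread between tumors for all 10 members. Values per tumor are CPM, that is, counts divided by each library's TMM-adjusted size. Lists of marker genes for other cell types differed between the groups. The summed level of 9 macrophage markers was 227 to 493 CPM in nonobese isotype tumors, 154 to 222 in nonobese anti–PD-1 tumors, 187 to 314 in obese isotype tumors and 262 to 504 in obese anti–PD-1 tumors. T cell, fibroblast, endothelial and adipocyte markers also had their lowest group means in nonobese anti–PD-1 or obese isotype tumors, and 8 of 8 adipocyte markers were called higher with anti–PD-1 than with isotype in obese mice. Keratinocyte markers summed to at most 8.14 CPM in any tumor. In bulk tissue, fewer melanoma cells and less of a transcript per melanoma cell cannot be told apart, and the part of other cells in the values below was not tested.

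Members took a large share of the counts. By mean CPM, which is not corrected for length, over the 12 tumors, Gpnmb ranked 1, Pmel 2, Dct 4 and Tyrp1 6 among all genes tested. Oca2 ranked 1851. Together the 10 genes took 3.72% ± 0.150 of all counts in nonobese isotype, 3.70% ± 0.176 in nonobese anti–PD-1, 3.97% ± 0.135 in obese isotype and 3.86% ± 0.234 in obese anti–PD-1 tumors (SD, n = 3 each). The ranges of the 4 groups overlapped in part, with single tumors between 3.50% and 4.13%. Melanocyte markers were thus high in every tumor, as the label of the cell line says.

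Divided by the length of the merged exons of each gene in the GENCODE annotation of GRCm38, levels fell in a steady order. Pmel led with 3935 ± 488 CPM per kb over the 12 tumors, followed by Tyrp1 (2707 ± 341), Gpnmb (1430 ± 111), Dct (1386 ± 118), Mlana (473 ± 57.9), Slc45a2 (470 ± 42.8), Sox10 (276 ± 45.4), Tyr (96.1 ± 16.01), Mitf (73.0 ± 16.1) and Oca2 (30.0 ± 5.20). Tyrosinase, the rate-limiting enzyme of melanin synthesis, was therefore the enzyme with the fewest transcripts per length. Neighbors in this order kept it in 12 of 12 tumors, except Gpnmb above Dct, which held in 8 of 12, and Mlana above Slc45a2, which held in 6 of 12. Neither of these neighboring pairs differed beyond the spread of the tumors.

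Between tumors of the same group, the median spread of members was close to that of genes above 50 CPM, a set not matched to the members in level. The median within-group SD of log2 CPM was 0.165 over the members, 0.209 over all genes tested and 0.157 over the 4405 genes with a mean above 50 CPM. Gpnmb varied least, with 0.111, and Mitf most, with 0.318. From its lowest to its highest tumor, Mitf spanned 2.14-fold, and the other 9 members spanned between 1.27-fold (Gpnmb) and 1.83-fold (Oca2).

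**Figure D1:**
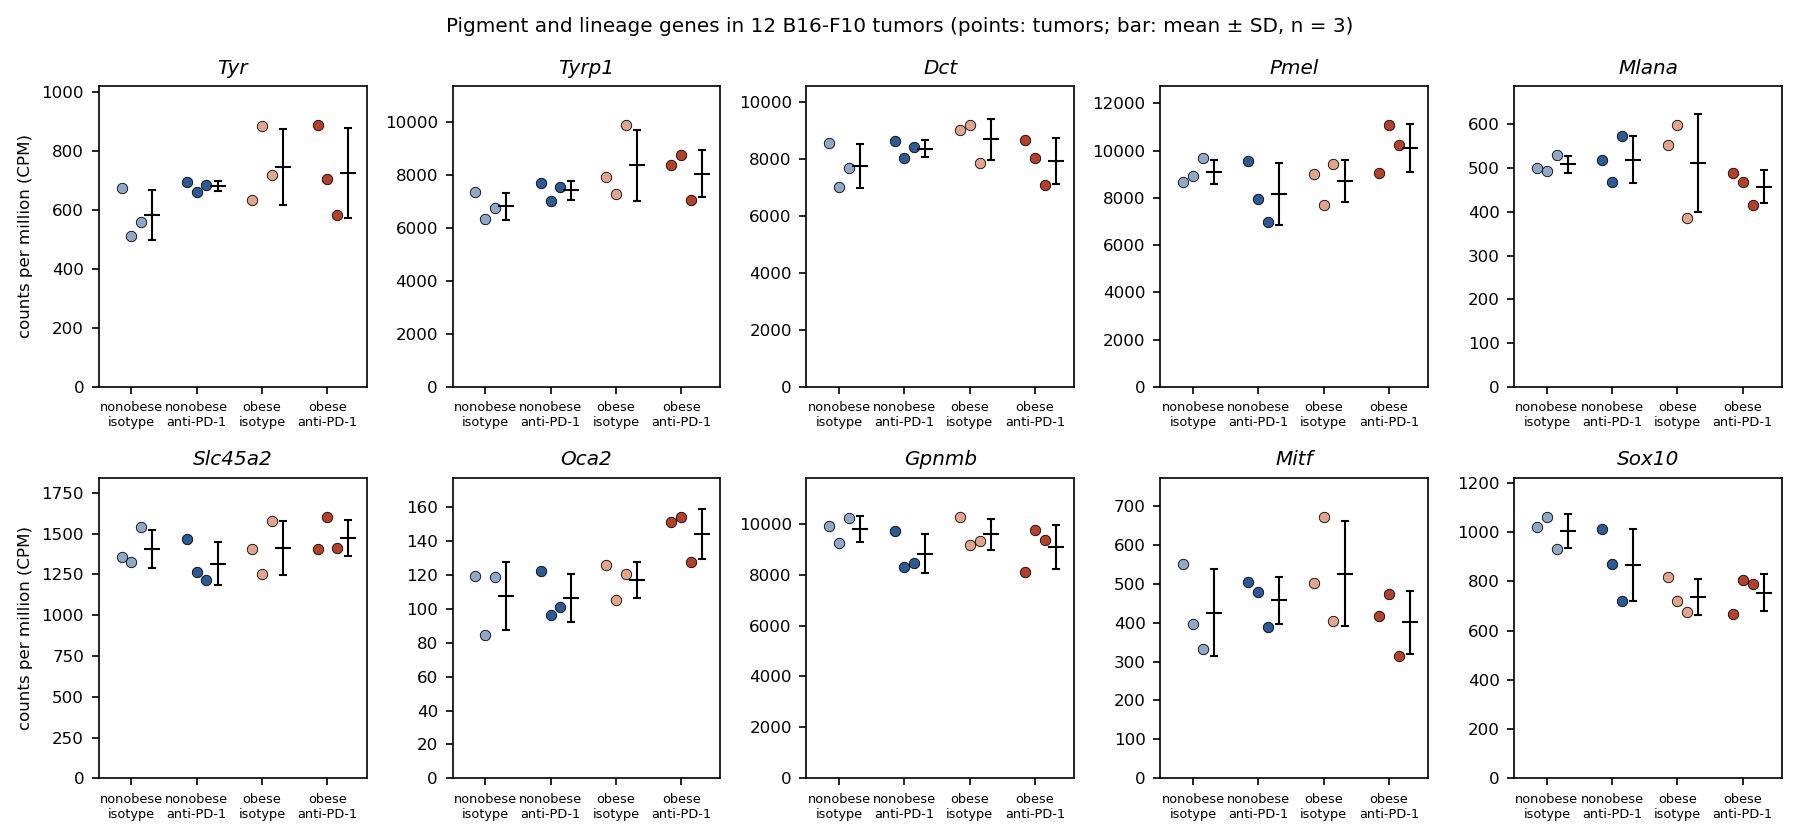
CPM (vertical axes, linear and starting at 0) of the 10 members in each of the 12 tumors, by group; points are tumors, and the bars beside them are the mean and SD of 3 tumors. The groups overlap for most members, whereas the obese isotype tumors (675 to 819 CPM) sit below the nonobese isotype tumors (931 to 1063 CPM) for Sox10, and the obese anti–PD-1 tumors (127 to 154 CPM) sit above the other groups for Oca2.

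To find out whether PD-1 blockade or diet changed the melanoma cell component, members were compared between groups in a model of all 12 tumors. The study called a gene when its fold change exceeded 2 and its P, before adjustment, was under 0.05 in edgeR's quasi-likelihood F-test. By this rule 0 of 10 members were called in any of the 7 comparisons made. The share of all genes called was 2.42% for anti–PD-1 in nonobese mice, 2.44% for anti–PD-1 in obese mice, 1.37% for diet with isotype, 4.25% for diet with anti–PD-1 and 5.76% for the contrast of obese with nonobese responses. It was 0.512% for diet averaged over treatments and 0.305% for anti–PD-1 averaged over diets. At these shares fewer than 1 of 10 genes would be called in any comparison, so the count of 0 does not set the members apart. By P alone, under 0.05 before adjustment, the members that passed numbered 0 in each comparison of anti–PD-1 with isotype, 2 for diet with isotype, 1 for diet with anti–PD-1, 0 for the difference between responses and 2 for diet averaged over treatments. Under other settings the count for anti–PD-1 in obese mice was 1 with DESeq2, RLE scaling, a filter of 10 counts or only the tumors compared and 2 with the replicate number as a block, and the smallest P were 0.0224 for Mitf and 0.0321 for Oca2. That for the difference between responses was 1 with DESeq2 and 1 with the block, and the smallest P were 0.0342 for Mitf and 0.0366 for Pmel. The count for diet with isotype was 3 with DESeq2 or library size alone. It was 1 with RLE scaling, a filter of 10 counts or only the tumors compared. For diet with anti–PD-1 it was 2 with DESeq2, RLE scaling, library size alone or a filter of 10 counts. For diet averaged over treatments it was 3 with DESeq2 or library size alone, and 4 without obese anti–PD-1 replicate 3. The shares of all genes at that P were 5.23%, 7.57% and 1.44% for anti–PD-1 in nonobese mice, in obese mice and averaged, 13.3%, 10.3% and 10.4% for diet with isotype, with anti–PD-1 and averaged, and 12.9% for the difference. No member had a false discovery rate (FDR, by Benjamini-Hochberg over all genes tested) below 0.05 from edgeR, whereas DESeq2 gave 1 member, Sox10, in 2 of the 7 comparisons. Of all genes tested, 0.382% had such an FDR from edgeR for diet with anti–PD-1, 0.183% for diet averaged over treatments and 0 in the other 5 comparisons. With DESeq2 such an FDR was found for 200 of the 13095 genes for diet with isotype and for 172 for diet averaged over treatments, the comparisons in which Sox10 passed. Groups of 3 tumors that did not overlap were found for 0 members for anti–PD-1 in nonobese mice, where 11.2% of all genes tested had them, and for 1 member in each of the other 3 comparisons of single groups. With 6 tumors on each side, anti–PD-1 against isotype left 0 members without overlap, beside 0.0458% of all genes tested.

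**Figure D2:**
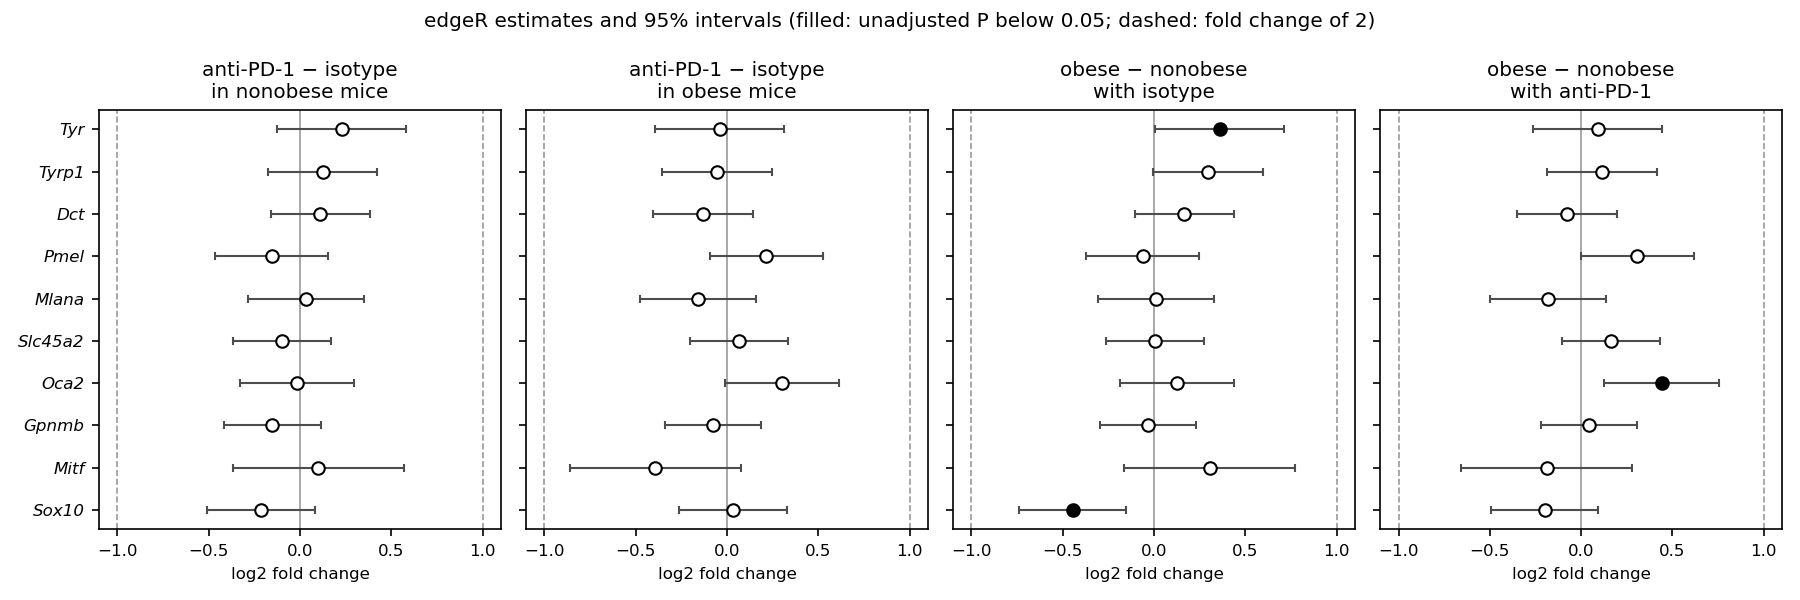
Log2 fold changes of the 10 members (horizontal axes) in 4 comparisons, with 95% intervals from edgeR; filled points have an unadjusted P below 0.05, and dashed lines mark a fold change of 2. All 40 intervals lie within the dashed lines, and the filled points are Tyr and Sox10 for diet with isotype and Oca2 for diet with anti–PD-1.

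The intervals give the size of change that these tumors leave room for. With anti–PD-1 in nonobese mice, log2 fold changes of members ran from -0.21 (Sox10) to 0.23 (Tyr), and their 95% intervals reached from -0.51 to 0.58, or 0.703-fold to 1.498-fold. With anti–PD-1 in obese mice they ran from -0.39 (Mitf) to 0.30 (Oca2), with intervals from -0.86 to 0.61, or 0.550-fold to 1.53-fold. The medians over the members were 0.01 and -0.05, and those over all genes tested were 0.02 and -0.01. Without single tumors the first of the members' medians lay between -0.06 and 0.06 and the second between -0.06 and 0.02, so neither kept its sign. Between diets, the intervals reached from -0.74 to 0.77 with isotype and from -0.66 to 0.75 with anti–PD-1. In each of these 4 comparisons, a change of 2-fold or more in any member lay outside its interval. The difference between the responses of obese and nonobese mice was less well measured, with intervals from -1.16 to 0.81, the lower end belonging to Mitf.

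Among the enzymes, tyrosinase had the smallest unadjusted P for diet with isotype, and it was not called in any comparison. Tyr was at 674, 510 and 558 CPM in the nonobese isotype tumors and at 634, 885 and 716 CPM in the obese isotype tumors. The groups overlapped by 1 obese tumor, and the log2 fold change was 0.36 (standard error 0.16, unadjusted P = 0.0472, FDR = 0.375 from edgeR). Leaving out each tumor in turn moved it between 0.21 and 0.48, and the unadjusted P between 0.0199 and 0.226, so its place below 0.05 rests on single tumors. With anti–PD-1, Tyr was at 695, 661 and 685 CPM in nonobese mice and at 886, 705 and 583 CPM in obese mice, where the obese tumors lay on both sides of the nonobese tumors (log2 fold change 0.09).

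Tyrp1, which stabilizes tyrosinase and acts later in eumelanin synthesis, was at 7343, 6334 and 6758 CPM in nonobese isotype tumors and at 7915, 7276 and 9867 CPM in obese isotype tumors. Its log2 fold change was 0.29 (standard error 0.14, unadjusted P = 0.0545 and FDR = 0.388 from edgeR), and the groups overlapped by 1 obese tumor. With anti–PD-1 the values were 7695, 7010.5 and 7554 CPM in nonobese and 8352, 8734 and 7029 CPM in obese mice, with a log2 fold change of 0.12. The tumor with the highest Tyrp1, an obese isotype tumor at 9867 CPM, was in the middle of its group for Tyr.

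Dct, the dopachrome tautomerase, was not called in any comparison. It was at 8541, 6993 and 7669 CPM in nonobese isotype, 8620.1, 8041 and 8398 CPM in nonobese anti–PD-1, 8992, 9173 and 7866 CPM in obese isotype and 8656, 8029 and 7066 CPM in obese anti–PD-1 tumors. All 4 groups overlapped, and the log2 fold changes lay between -0.13 and 0.17. Tyr, Tyrp1 and Dct each had their lowest value over the 12 tumors in the same library, nonobese isotype replicate 2, which also had the lowest Oca2. Mitf was at 396 CPM there and had its lowest value, 313 CPM, in obese anti–PD-1 replicate 3. What set this library apart was not tested.

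Pmel and Mlana, the structural and antigen genes, showed no called difference. Pmel was at 8674, 8931 and 9675 CPM in nonobese isotype tumors and at 9573, 7940.2 and 6969 CPM in nonobese anti–PD-1 tumors. It was at 9006, 7696 and 9428 CPM in obese isotype tumors and at 9040.3, 11069 and 10214 CPM in obese anti–PD-1 tumors. The obese anti–PD-1 group had the highest mean, and it overlapped with each of the other groups. Against nonobese anti–PD-1 tumors its log2 fold change was 0.31 (standard error 0.14, unadjusted P = 0.0502, FDR = 0.488 from edgeR), with a 95% interval of -0.00027 to 0.62. This unadjusted P ran from 0.0174 to 0.136 under the other settings, DESeq2 among them, and from 0.00730 to 0.174 when single tumors were left out. The direction of the response to anti–PD-1 was opposite in nonobese (-0.16) and obese mice (0.21), but the difference between the responses, 0.37 (95% interval -0.07 to 0.81), gave an unadjusted P of 0.0898 in edgeR. Exons of Pmel (chromosome 10, 128704195 to 128720238, plus strand) share 105 bases with Dgka and 34 with Cdk2 on the opposite strand. These are 4.58% and 1.48% of its exon bases, and whether counting used strand is not given in the sources used here.

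Mlana was at 501, 494 and 531 CPM in nonobese isotype and at 518, 467 and 574 CPM in nonobese anti–PD-1 tumors. In obese mice it was at 552, 598 and 386 CPM with isotype and at 488, 469 and 417 CPM with anti–PD-1. The 3 obese isotype tumors included both the highest and the lowest Mlana value of the series. Its log2 fold changes lay between -0.18 and 0.03 in the 4 comparisons.

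Slc45a2 and Oca2, the genes of transport proteins, were not called in any comparison. Slc45a2, a transporter whose loss lightens pigment, was at 1358, 1324 and 1541 CPM in nonobese isotype, 1468, 1264 and 1218 CPM in nonobese anti–PD-1, 1405, 1251 and 1578 CPM in obese isotype and 1408, 1603 and 1412 CPM in obese anti–PD-1 tumors. All groups overlapped, and log2 fold changes lay between -0.10 and 0.16.

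Oca2, an anion channel of the melanosome that raises its pH, had its 3 highest values in obese mice given anti–PD-1, without being called. It was at 119, 84.4 and 119 CPM in nonobese isotype tumors and at 122, 96.1 and 101 CPM in nonobese anti–PD-1 tumors. It was at 126, 105 and 121 CPM in obese isotype tumors and at 151, 154 and 127 CPM in obese anti–PD-1 tumors. Each obese anti–PD-1 tumor was above every tumor of the other 3 groups, the nearest being an obese isotype tumor at 126 CPM. Against nonobese anti–PD-1 tumors the log2 fold change was 0.44 (standard error 0.15, 95% interval 0.13 to 0.75, unadjusted P = 0.00942, FDR = 0.266 from edgeR). It kept to between 0.37 and 0.55 when each tumor was left out. Against obese isotype tumors it was 0.30 (standard error 0.15, unadjusted P = 0.0586, FDR = 0.668 from edgeR), and averaged over treatments the diet difference was 0.28 (unadjusted P = 0.0161, FDR = 0.354). Oca2 was the only member whose groups did not overlap for diet with anti–PD-1, where 13.6% of all genes tested had groups apart, and for anti–PD-1 in obese mice, where 12.4% had. The response to anti–PD-1 differed between the diets by 0.32 (95% interval -0.13 to 0.76, unadjusted P = 0.148 in edgeR), so a difference between the responses was not shown. Markers of other cells moved with the comparison of diets under anti–PD-1. In obese anti–PD-1 tumors 8 of 8 adipocyte markers (median log2 fold change 2.96), 6 of 8 T cell markers (2.88), 6 of 9 macrophage markers (1.28), 3 of 8 fibroblast markers (1.40) and 1 of 8 endothelial markers (0.27) were called higher, and their part in the Oca2 value was not tested.

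Gpnmb had the highest mean CPM of all genes tested, without regard to length, and the smallest spread within groups of the members. It was at 9917, 9240.5 and 10227 CPM in nonobese isotype, 9705, 8281 and 8465 CPM in nonobese anti–PD-1, 10271, 9151 and 9300.0 CPM in obese isotype and 8105, 9769 and 9374 CPM in obese anti–PD-1 tumors. The groups overlapped in all 4 comparisons, with log2 fold changes between -0.15 and 0.04. Its correlation with the macrophage marker score over the 12 tumors did not pass the test (r = 0.327, permutation p = 0.297; rho = 0.364, permutation p = 0.246; adjusted p = 0.482 for r over the 10 members), and the part of macrophages in its level was not tested.

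Mitf, the lineage regulator, was the most variable member. It was at 551, 396 and 331 CPM in nonobese isotype and at 505, 478 and 388 CPM in nonobese anti–PD-1 tumors. In obese mice it was at 501, 672 and 405 CPM with isotype and at 417, 472 and 313 CPM with anti–PD-1. Groups overlapped in all 4 comparisons, and the largest difference, anti–PD-1 against isotype in obese mice, was -0.39 on the log2 scale (95% interval -0.86 to 0.08, unadjusted P = 0.0947, FDR = 0.705 from edgeR). Leaving out single tumors moved this difference between -0.53 and -0.17, and its unadjusted P between 0.0340 and 0.449. GENCODE lists 8 transcripts for Mitf (chromosome 6, 97807052 to 98021349, plus strand), and RefSeq gives 3 promoters, so the gene count adds the melanocyte form to any others.

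Sox10 (chromosome 15, 79154908 to 79165240, minus strand) was the member with the smallest unadjusted P for diet with isotype. It was at 1021, 1063 and 931 CPM in nonobese isotype tumors and at 819, 718 and 675 CPM in obese isotype tumors. The groups did not overlap, and Sox10 was the only member apart for diet with isotype, where 19.4% of all genes tested were. The log2 fold change was -0.45 (standard error 0.14, 95% interval -0.74 to -0.15), or 0.734-fold. Its unadjusted P was 0.00597 and its FDR 0.2498 from edgeR, while 13.3% of all genes tested had an unadjusted P below 0.05 in this comparison. Without single tumors the difference lay between -0.55 and -0.40, with unadjusted P values of at most 0.0232, and the FDR under the other settings ran from 0.0400 with DESeq2 to 0.308. With anti–PD-1 the values were 1011, 870.1 and 720 CPM in nonobese and 669, 804 and 791 CPM in obese mice. There the groups overlapped, and the log2 fold change was -0.20 (95% interval -0.49 to 0.09, unadjusted P = 0.166 in edgeR). Averaged over both treatments it was -0.32 (standard error 0.10, unadjusted P = 0.00509, FDR = 0.248 from edgeR, and from 0.0451 with DESeq2 to 0.291 under the other settings). An exact permutation test of 3 tumors against 3 cannot give a two-sided p below 0.1.

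Sox10 is also made by Schwann cells of nerves. The summed level of 7 Schwann markers was 186 to 194 CPM in nonobese isotype tumors and 252 to 331 CPM in obese isotype tumors. Prx, a myelin gene specific to Schwann cells, had between 6 and 61 counts per tumor, whereas Mbp, which other cells also express, had between 2022 and 4230, the most of the list. The other 8 marker lists had lower mean summed levels in obese than in nonobese isotype tumors, and the part of Schwann cells and of these other cells in the Sox10 value was not tested.

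For diet with isotype, the log2 fold change of Sox10 was negative, and those of Tyr, Tyrp1, Dct and Mitf were 0.36, 0.29, 0.17 and 0.30. The 95% intervals of Tyrp1 (-0.0065 to 0.59), Dct (-0.11 to 0.44) and Mitf (-0.16 to 0.77) included 0. Leaving out single tumors moved Tyrp1 between 0.14 and 0.37, Dct between 0.09 and 0.24 and Mitf between 0.08 and 0.53. Over all members, 7 of 10 had a positive log2 fold change there, with a median of 0.07, beside 0.01 over all genes tested. With anti–PD-1, 6 of 10 were positive, with a median of 0.07 beside -0.01. Without single tumors the median ran from -0.03 (without nonobese isotype replicate 2, the one tumor that turned its sign) to 0.12 with isotype, and from 0.01 (without obese anti–PD-1 replicate 1) to 0.11 with anti–PD-1, so these medians rest on single tumors. Comparisons within a diet and within a treatment share tumors, so these counts are not independent of those for anti–PD-1.

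The 10 members did not vary as 1 block. Over the 12 tumors, 27 of the 45 pairs of members had a positive correlation of log2 CPM and 18 a negative one, with a median r of 0.130. The closest pair was Pmel and Slc45a2 (r = 0.885, rho = 0.930, permutation p = 0.00015, adjusted p = 0.00675 by Benjamini-Hochberg over 45 pairs), the only pair with an adjusted p below 0.05. Without the 2 tumors farthest from the median of Pmel it was 0.802. Taken as deviations from the group means it was 0.888, with a permutation p of 0.00231 within groups and 0.104 after adjustment. Dct followed Mitf (r = 0.763, adjusted p = 0.0730) and Tyr (r = 0.751), neither past the threshold after adjustment. The most negative pair was Tyr and Sox10 (r = -0.655).

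**Figure D3:**
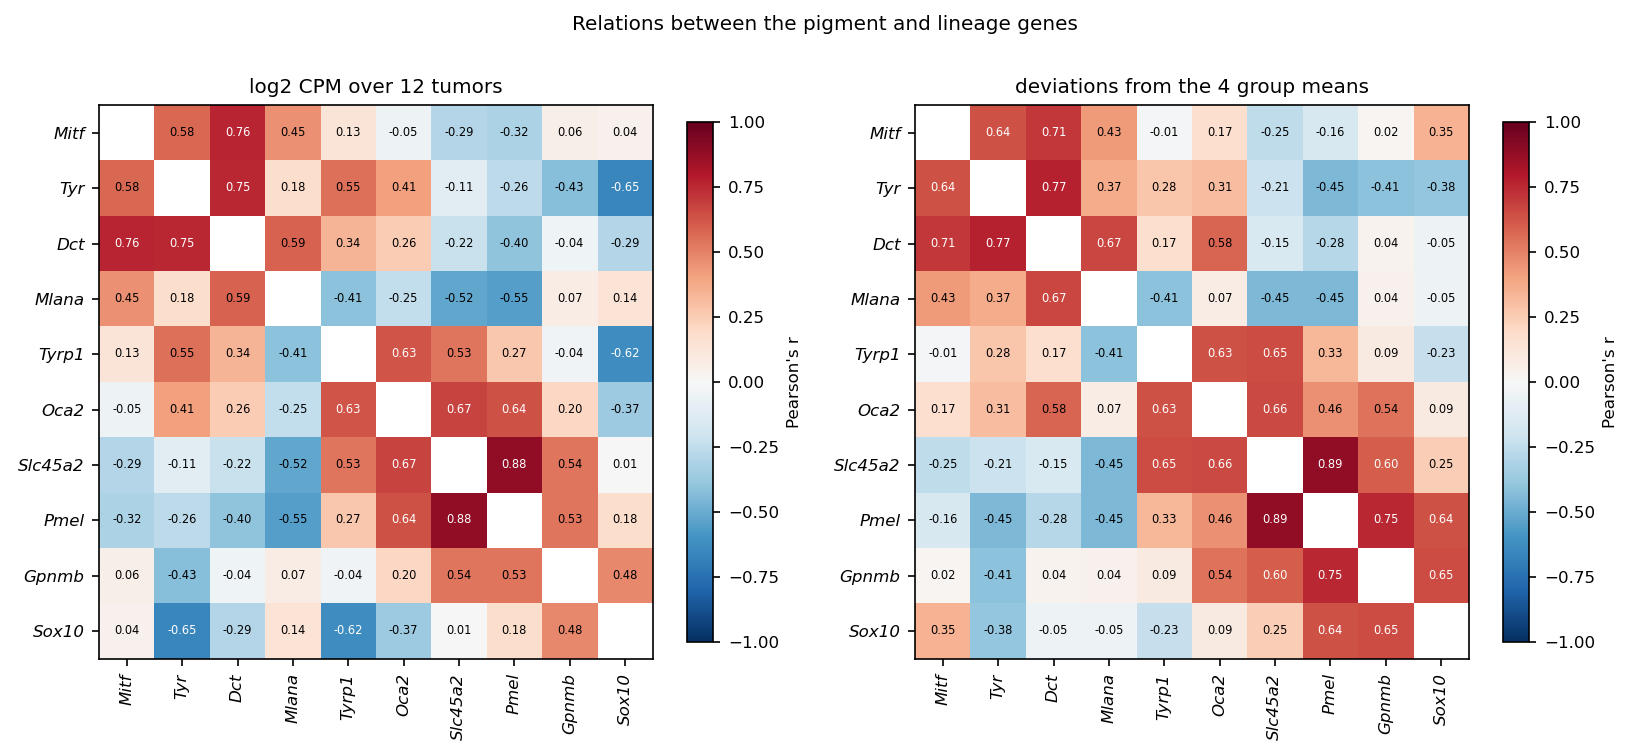
Pearson's r between members over the 12 tumors, for log2 CPM (left) and for deviations from the 4 group means (right), from -1 (blue) to 1 (red). Mitf, Tyr, Dct and Mlana are positively related among themselves, as are Oca2, Slc45a2, Pmel and Gpnmb, and Pmel with Slc45a2 is the closest pair in both panels.

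Members were also set against the macrophage marker score, the mean log2 CPM of 9 markers. Of the 10 relations, 0 had an adjusted p below 0.05, and 4 had an unadjusted permutation p below it. Dct (r = -0.706, permutation p = 0.0109, adjusted p = 0.0951; rho = -0.587, permutation p = 0.0487), Tyr (r = -0.616) and Mitf (r = -0.601) had negative correlations with the score, and Pmel a positive one (r = 0.613). By rank, the permutation p was 0.140 for Tyr (rho = -0.455), 0.0773 for Mitf (rho = -0.531) and 0.0668 for Pmel (rho = 0.552). Without the 2 tumors farthest from the median score, r was -0.663 for Dct, -0.622 for Tyr, -0.752 for Mitf and 0.558 for Pmel. Within groups, as deviations from the group means, r was -0.900 for Tyr (permutation p = 0.00540, adjusted p = 0.0540), -0.664 for Dct, -0.558 for Mitf and 0.297 for Pmel. The CPM of a tumor share 1 total, and the part of this in these relations was not tested.

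**Figure D4:**
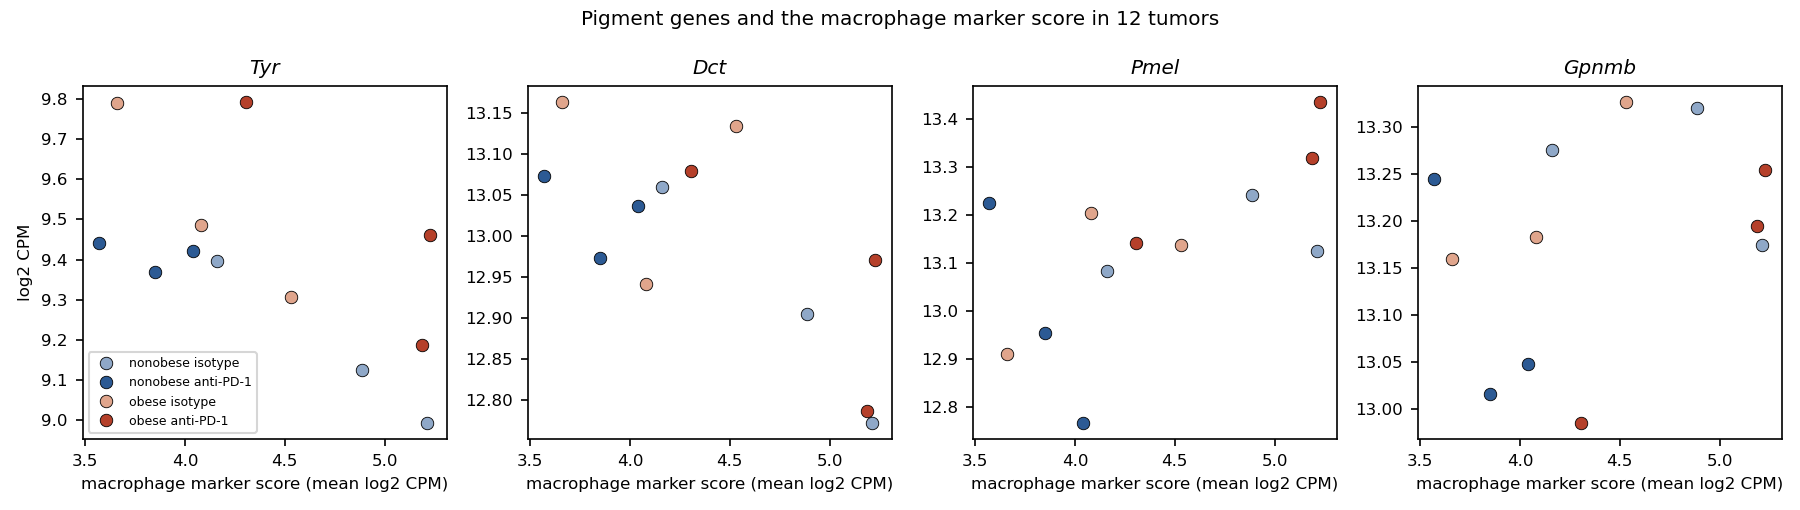
Log2 CPM of Tyr, Dct, Pmel and Gpnmb (vertical axes) against the macrophage marker score, the mean log2 CPM of 9 markers (horizontal axes), in 12 tumors colored by group. Pearson's r was -0.616 for Tyr, -0.706 for Dct, 0.613 for Pmel and 0.327 for Gpnmb, none with an adjusted p below 0.05.

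The standardized log2 CPM of the 7 pigment genes Tyr, Tyrp1, Dct, Pmel, Mlana, Slc45a2 and Oca2 was averaged, although these genes did not vary together. The genes most like this mean were Slc25a34 (r = 0.884), Hsd17b11 (0.844), Fuca2 (0.841), Laptm4b (0.838) and Slc25a12 (0.838), among 11945 genes with a mean above 1 CPM over 12 tumors. They are the highest of 11945 correlations over only 12 tumors, and high r can arise by chance among so many. A tie of these genes to pigmentation was not tested. Of the members themselves, Oca2 was closest to this mean (0.868) and Mlana farthest among the 7 (0.0085). Each of the 7 is part of the mean it was set against, so these r cannot be compared with those of the other genes.

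Beyond the members, 5 lists of other pigment and lineage genes held 88 genes, of which 79 were tested. Of these, 0 were called for anti–PD-1 in nonobese mice, 2 for anti–PD-1 in obese mice, 1 for diet with isotype, 2 for diet with anti–PD-1 and 4 for the difference between responses (Acp5, Bcl2a1b, Dapk1 and Tfec), beside 2.42%, 2.44%, 1.37%, 4.25% and 5.76% of all genes tested. For the first 4 of these comparisons, at an unadjusted P below 0.05 the counts were 4, 7, 11 and 6, or 5.06%, 8.86%, 13.9% and 7.59% of the list, beside 5.23%, 7.57%, 13.3% and 10.3% of all genes tested. None of the 79 had an FDR below 0.05 from edgeR in these comparisons.

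For diet with isotype, 8 of the 11 were higher in obese mice and 3 lower, beside 7.11% and 6.17% of all genes tested. Rab27a, the GTPase that ties melanosomes to their carrier, was at 219, 194 and 237 CPM in nonobese isotype and at 273, 393 and 318 CPM in obese isotype tumors (log2 fold change 0.60, standard error 0.16, FDR = 0.205 from edgeR). Mreg, which acts in melanosome transport, was at 32.4, 29.1 and 34.0 CPM in nonobese and at 39.0, 55.3 and 44.2 CPM in obese mice (0.53, standard error 0.16, FDR = 0.2498). The groups of 3 tumors did not overlap for either gene, as for 19.4% of all genes tested in this comparison. Genes of these lists were named for an unadjusted P below 0.05 in these data, so their lack of overlap adds little. With DESeq2 the FDR of Rab27a was 0.0235. Mlph, the linker between Rab27a and the motor Myo5a, had a difference of the opposite sign, with 882, 858 and 1259 CPM in nonobese and 830, 518 and 739 CPM in obese isotype tumors (log2 difference -0.52, standard error 0.19, FDR = 0.296). Its groups did not overlap either, and its unadjusted P reached 0.1002 when single tumors were left out. Myo5a itself was at 626, 504 and 621 CPM in nonobese and at 654, 635 and 888 CPM in obese isotype tumors (0.31, 95% interval 0.01 to 0.62), also without overlap. With anti–PD-1, the log2 fold changes for diet were 0.17 for Rab27a, 0.34 for Mreg, 0.18 for Mlph and 0.21 for Myo5a, and each 95% interval included 0. Rab27a was at 244, 281 and 303 CPM in nonobese anti–PD-1 tumors, above the nonobese isotype tumors without overlap, as 11.2% of all genes tested were apart there. Its log2 fold change for anti–PD-1 in nonobese mice was 0.35 (unadjusted P = 0.0421, FDR = 0.924 from edgeR). Averaged over treatments, the diet difference of Mreg was 0.44 (FDR = 0.200 from edgeR and 0.0339 from DESeq2). Stx7, a syntaxin of endosomes, was at 234, 227 and 238 CPM in nonobese isotype and at 289, 387 and 305 CPM in obese isotype tumors (log2 fold change 0.49, standard error 0.14, FDR = 0.231 from edgeR), without overlap, and its log2 fold change for diet with anti–PD-1 was 0.13.

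Among channels and transporters, the log2 fold change for diet with isotype was 0.39 for Trpm1 (FDR = 0.352) and 0.26 for Slc24a5 (FDR = 0.374 from edgeR). Without single tumors their unadjusted P in edgeR reached 0.159 and 0.201. For diet with anti–PD-1 it was 0.27 for Gpr143 (FDR = 0.419 from edgeR), the melanosomal receptor of ocular albinism. Averaged over treatments, the diet difference of Gpr143 was 0.26 (unadjusted P = 0.00712, FDR = 0.283 from edgeR), and all 6 obese tumors were above all 6 nonobese tumors, from 56.8 to 74.2 CPM beside 49.1 to 55.8 CPM. Such a separation of 6 from 6 was found for 1.06% of all genes tested.

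Among the transcription factors, Sox9, which is related to Sox10, was at 10.4, 10.6 and 6.42 CPM in nonobese isotype and at 15.5, 17.5 and 18.3 CPM in obese isotype tumors (log2 fold change 0.89, standard error 0.27, unadjusted P = 0.00510, FDR = 0.2497 from edgeR). The groups did not overlap, as for 19.4% of all genes tested, but with anti–PD-1 the log2 fold change for diet was 0.20 (unadjusted P = 0.476 in edgeR). Tfeb, the lysosomal relative of Mitf, was at 54.6, 48.8 and 44.4 CPM in obese isotype tumors and at 59.5, 69.6 and 63.8 CPM in nonobese isotype tumors (-0.39, standard error 0.11, FDR = 0.223 from edgeR and 0.0391 from DESeq2). With anti–PD-1 its log2 fold change for diet was -0.03 (unadjusted P = 0.764 in edgeR). Pax3, a regulator of Mitf, was at 191, 209 and 202 CPM in obese isotype and at 146, 175 and 176 CPM in obese anti–PD-1 tumors (-0.27, standard error 0.10, FDR = 0.486). These groups did not overlap, as for 12.4% of all genes tested there. The response of Pax3 differed between diets by -0.40 (unadjusted P = 0.0121, FDR = 0.254 from edgeR).

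**Figure D5:**
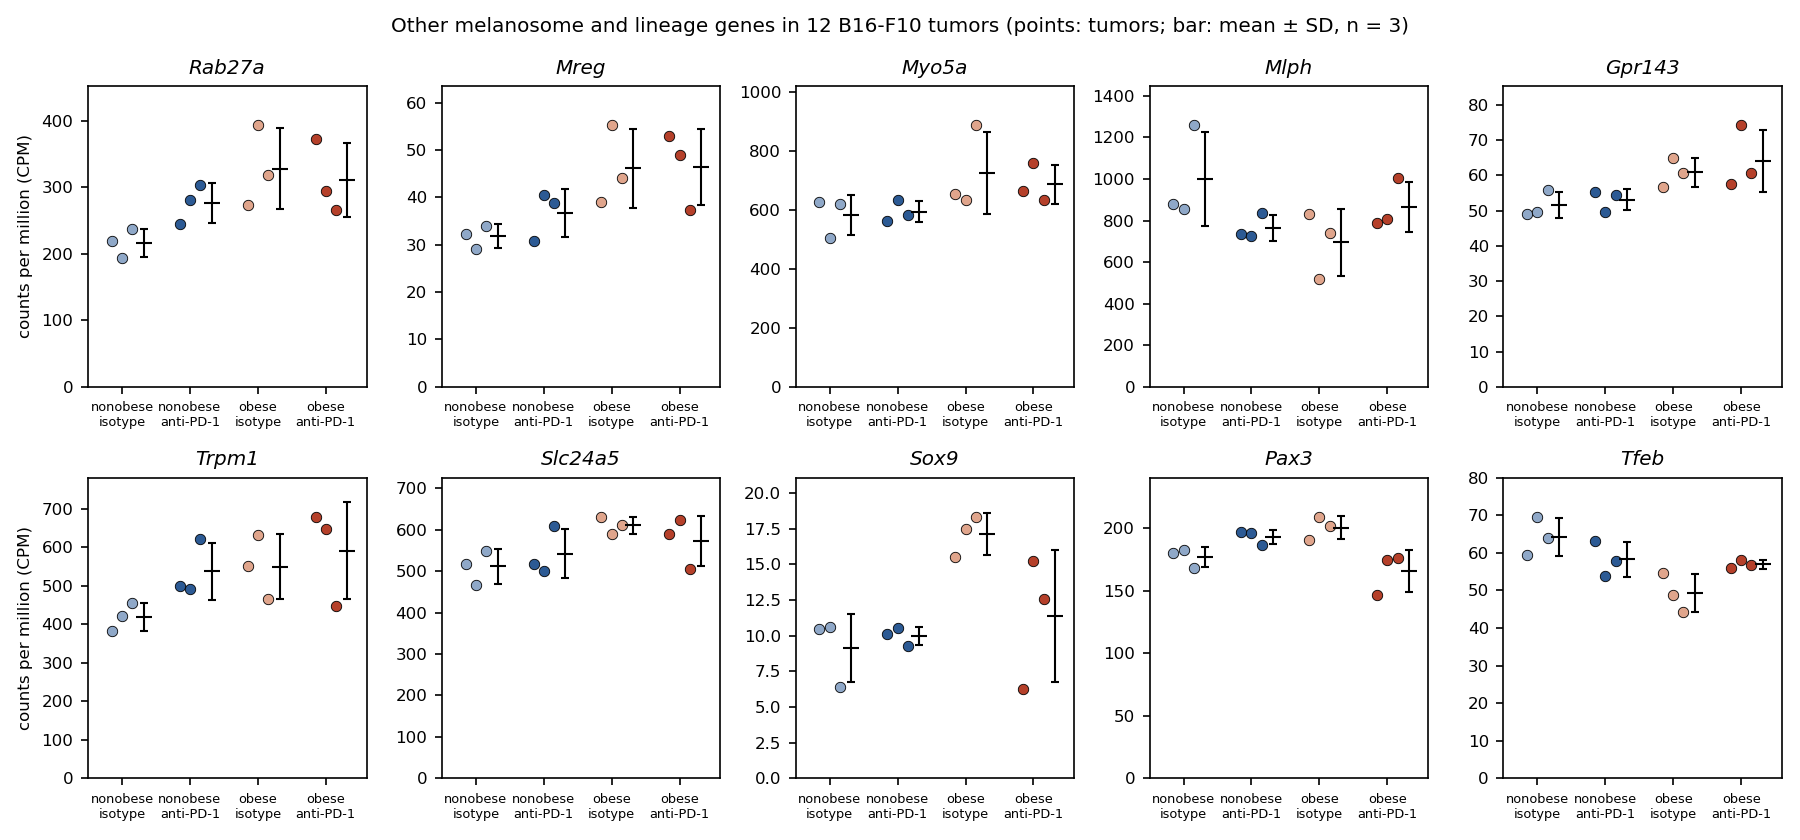
CPM (vertical axes, linear and starting at 0) of 10 other melanosome and lineage genes in each of the 12 tumors, by group; points are tumors, and the bars beside them are the mean and SD of 3 tumors. In obese isotype tumors Rab27a (273 to 393 CPM), Mreg, Myo5a and Sox9 lie above and Mlph and Tfeb below the nonobese isotype tumors, and Gpr143 is above 56 CPM in obese mice and below it in nonobese mice. Of all genes tested, 19.4% had groups apart for diet with isotype.

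Other genes of these lists were chosen by P. For diet averaged over treatments, the log2 fold change was 0.34 for Zeb2 (FDR = 0.343), 0.22 for Bace2 (FDR = 0.371) and 0.20 for Rab38 (FDR = 0.427 from edgeR). For diet with anti–PD-1 it was 0.26 for Tbx2 (FDR = 0.387) and -0.30 for Creb1 (FDR = 0.404 from edgeR). For anti–PD-1 in nonobese mice it was -0.52 for Ednrb (FDR = 0.896), 0.35 for Rab27a (FDR = 0.924) and 0.31 for Stx7 (FDR = 0.929 from edgeR). Without single tumors their unadjusted P in edgeR reached 0.136, 0.143 and 0.287. For anti–PD-1 in obese mice the log2 fold change was -0.37 for Erbb3 (FDR = 0.631), -0.58 for Sox9 (FDR = 0.654) and -0.32 for Creb1 (FDR = 0.538 from edgeR). Without single tumors the unadjusted P of these 3 genes in edgeR reached 0.196, 0.212 and 0.116. Tfec, at most 0.787 CPM in any tumor, had a difference between responses of 1.89 (unadjusted P = 0.0478 in edgeR, and up to 0.140 when single tumors were left out).

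The 2 genes of these lists called for anti–PD-1 in obese mice were Bcl2a1b and Dapk1, and those called for diet with anti–PD-1 were Acp5 and Bcl2a1b. For anti–PD-1 in obese mice, the unadjusted P without single tumors reached 0.0579 for Bcl2a1b and 0.141 for Dapk1. Both of these calls therefore rest on single tumors. For diet with anti–PD-1 it reached 0.0185 for Acp5 and 0.0430 for Bcl2a1b. The log2 fold change of Bcl2a1b there fell to 0.87, below a fold change of 2. Acp5 and Bcl2a1b are counted as MITF targets and are also known in macrophages and other blood cells. Acp5 was at 1.93, 1.24 and 2.18 CPM in nonobese anti–PD-1 and at 3.74, 4.43 and 5.57 CPM in obese anti–PD-1 tumors (log2 fold change 1.37, standard error 0.38, FDR = 0.169 from edgeR and 0.0376 from DESeq2), in the comparison in which 6 of 9 macrophage markers were called higher. In isotype tumors Acp5 was at 1.48, 4.17 and 4.43 CPM in nonobese and at 2.31, 2.45 and 2.15 CPM in obese mice. Its log2 fold change for anti–PD-1 was -0.91 in nonobese mice (unadjusted P = 0.0315, FDR = 0.912 from edgeR) and 0.99 in obese mice (unadjusted P = 0.0207, FDR = 0.538). Bcl2a1b has near-identical copies, so its count is uncertain. For diet with isotype the called gene was Edn1, the ligand of the melanocyte receptor Ednrb, at 0 to 46 counts per tumor in the 2 groups. Its log2 fold change was -1.73 (unadjusted P = 0.0436, FDR = 0.368 from edgeR). Leaving out single tumors moved this change between -2.61 and -1.25. The unadjusted P then reached 0.1096, so the call of Edn1 rests on single tumors.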

How the data were processed

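RNA of 12 tumors was sequenced as stranded poly(A) libraries from 180 ng of RNA, with single-end reads of 100 bp. The authors deposited raw counts per gene. The submitters' processing notes name FastQC 0.11.5, STAR 2.7.0f, HTSeq 0.9.1, edgeR 3.28.1 and mm10; whether counting used strand is not given in the sources used here. Groups were taken from the sample labels, and 0 columns were left unused. Counts were filtered with filterByExpr, scaled by TMM and fitted with edgeR 4.0.16 (R 4.3.3, limma 3.58.1) as 1 model of 4 group means, with 8 residual degrees of freedom and the quasi-likelihood F-test (glmQLFit with legacy=TRUE). P values are unadjusted unless named FDR, which is Benjamini-Hochberg over the 13095 genes tested. Standard errors were derived from the F statistic. Correlations used log2 CPM with a prior count of 2 and 100000 permutations (two-sided), or every reordering within groups for deviations from group means.

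The members and lists were chosen with earlier results of these data known. The genes named are all members, the genes of 5 wider lists at P below 0.05, at most 10 per comparison, and the 5 genes most like the pigment pattern. Alternatives were DESeq2 1.42.0, other scalings and filters, other forms of the model, the replicate number as a block and leaving out each tumor. 1 gene of the marker lists is not reported here and was left out of its list. The code was tested on simulated data. Intervals and counting error cover these libraries only, without molecular identifiers.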

Additional observations from a re-analysis of the deposited data

How the results depend on the processing

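No member was called in any comparison under any alternative, and no median over the members moved by more than the spread between tumors. Of 600 values of members under settings other than leaving out a tumor, 12 changed sign and 2 passed an FDR of 0.05, both Sox10 with DESeq2. Of 600 without a tumor, 51 changed sign and 0 passed. The cause of the sign changes was not tested.

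For diet with isotype, Mlana (main value 0.0085 on the log2 scale) was -0.0086 with DESeq2, -0.0086 with RLE scaling, -0.026 with at least 10 counts in every tumor, -0.0013 with the replicate number as a block and -0.017 with only the tumors compared. Slc45a2 (0.0035) was -0.012 with DESeq2, -0.012 with RLE scaling, -0.030 with at least 10 counts and -0.023 with only the tumors compared. For anti–PD-1 in nonobese mice, Oca2 (-0.015) was 0.0063 with library size alone and 0.0050 with at least 1 count. Dct for anti–PD-1 averaged over diets (-0.011) was 0.00076 with at least 1 count. The relation of Oca2 with the macrophage score (r = 0.184) was -0.349 as deviations from group means, and that of Sox10 (r = 0.180) was -0.019 without 2 tumors.

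Without single tumors, for anti–PD-1 in nonobese mice, Mlana ran from -0.067 to 0.102, Mitf from -0.050 to 0.331 and Oca2 from -0.162 to 0.067. For anti–PD-1 in obese mice, Tyr ran from -0.187 to 0.109, Tyrp1 from -0.137 to 0.095, Slc45a2 from -0.0079 to 0.165, Gpnmb from -0.122 to 0.021 and Sox10 from -0.013 to 0.134. For diet with isotype, Pmel ran from -0.138 to 0.0095, Mlana from -0.128 to 0.160, Slc45a2 from -0.100 to 0.073 and Oca2 from -0.035 to 0.208. For diet with anti–PD-1, Tyr ran from -0.073 to 0.219 and Gpnmb from -0.017 to 0.126. Averaged over treatments, Mitf ran from -0.054 to 0.173 and Gpnmb from -0.032 to 0.039. For anti–PD-1 averaged over diets, Tyrp1 ran from -0.0070 to 0.109, Dct from -0.037 to 0.031, Pmel from -0.030 to 0.077, Mlana from -0.142 to 0.0021 and Slc45a2 from -0.053 to 0.033.

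For the wider lists, only the 45 values with an unadjusted P below 0.05 that were named were followed, so a change of sign was unlikely from the start. Their counts cannot be compared with those of the members. Of 383 values of these genes under other settings, 0 changed sign and 6 passed an FDR of 0.05, all with DESeq2. Of 378 without a tumor, 0 changed sign and 1 passed, Acp5 in the difference between responses (2.27 without a nonobese isotype tumor). The replicate numbers are shared by different mice. Deviations correlated at 0.133 on average for the same number and -0.0623 for different numbers, 5 of 12 tumors correlated best with their own number, and with the block Sox10 was -0.45 for diet with isotype. With 3 tumors per group, changes smaller than the intervals given could not be detected.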
